A study of Rattus norvegicus with 5 samples.

Results

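The genes described here encode the stress sensors, chaperones, disulphide enzymes, degradation factors and translocation machinery of the endoplasmic reticulum (ER). They were chosen by name as a list of 38 genes, and every probe set annotated to one of them was taken. Probe sets were found for 35 of the 38 genes (46 probe sets), and all 35 were bright enough to test, among 6944 tested genes in all. Atf6 and Ern1, which encode sensors, and Derl3, a degradation factor, were named by no probe set here and have no value. Total RNA came from the parental INS-1 line, a rat insulinoma used as a model of the beta cell, and from 4 clones derived from it, each on 1 array. The parental array carries no engineered element according to the labels. All 4 clones, 1-1.2, 1-1.16, 5-3.14 and 5-3.19, carry an FRT site, at which Flp recombinase can insert a chosen gene, and the tetracycline repressor, which holds such a gene silent until tetracycline is given. The labels name no inserted gene and no tetracycline treatment for these samples. Each engineered line is a single clone, so its value belongs to that clone. The labels do not call the parental line a clone. Names beginning 1-1 and 5-3 are treated as sets of 2 clones each; whether the clones of a set share an origin is not given in the sources used here. Signals are linear intensities on an arbitrary scale, each array having been set to a common average before deposit, and they compare arrays for 1 gene at a time, not genes with each other.

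The ER folds the proteins that a cell secretes, and a beta cell makes proinsulin there, with its disulphide bonds. When unfolded protein builds up, the sensors IRE1 (Ern1), PERK (Eif2ak3) and ATF6 leave the chaperone BiP (Hspa5) and start the unfolded protein response. IRE1 splices the messenger RNA of Xbp1, whose product, with cleaved ATF6, raises transcription of chaperones, disulphide enzymes and degradation factors. PERK slows translation and leads through ATF4 to a separate set of targets that includes Ddit3 (CHOP).

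The best known binding sites of ATF6 and XBP1 are the ER stress elements. Promoters were searched because many of the genes below read highest on the same array, and the windows with a match are shown for the measured genes whose match lies wholly before the transcription start. RefSeq windows of 300 bases, from 250 before the transcription start to 50 after it on GRCr8, were held for 30 of the 38 genes (31 entries, Hyou1 having 2). ERSE was searched as CCAAT, any 9 bases, CCACG; ERSE-II as ATTGG, any 1 base, CCACG; and UPRE as TGACGTGG, all on both strands. The letters matched are in capitals below, in reading direction of the gene, with 20 bases on each side where the window allowed; on the opposite strand CCAAT reads ATTGG and CCACG reads CGTGG.
Hspa5: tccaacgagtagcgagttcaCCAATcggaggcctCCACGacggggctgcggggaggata
Hsp90b1: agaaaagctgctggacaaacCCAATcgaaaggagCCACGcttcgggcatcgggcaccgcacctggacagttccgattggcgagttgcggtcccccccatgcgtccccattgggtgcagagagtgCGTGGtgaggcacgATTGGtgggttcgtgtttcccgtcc
Creld2: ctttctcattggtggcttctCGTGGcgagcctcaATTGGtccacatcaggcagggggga
Canx: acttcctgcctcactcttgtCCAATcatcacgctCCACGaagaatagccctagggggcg
Calr: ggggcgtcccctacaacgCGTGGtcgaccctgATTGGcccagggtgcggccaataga
Dnajc3: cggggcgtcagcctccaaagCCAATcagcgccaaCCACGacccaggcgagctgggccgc
Hyou1: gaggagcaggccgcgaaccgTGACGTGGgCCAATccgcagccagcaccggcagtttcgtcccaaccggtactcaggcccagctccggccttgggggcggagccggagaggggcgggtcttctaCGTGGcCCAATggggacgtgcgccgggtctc
Xbp1: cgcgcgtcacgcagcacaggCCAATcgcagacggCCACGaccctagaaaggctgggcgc
Ero1b: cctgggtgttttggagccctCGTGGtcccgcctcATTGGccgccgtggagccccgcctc
Herpud1: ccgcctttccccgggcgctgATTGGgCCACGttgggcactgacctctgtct

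These windows lie at chr3:38452953-38453011 (+) for Hspa5, chr7:23012327-23012489 (-) for Hsp90b1, chr7:121789219-121789277 (+) for Creld2, chr10:35158049-35158107 (-) for Canx and chr19:40213117-40213173 (+) for Calr. The others lie at chr15:102432514-102432572 (+) for Dnajc3, chr8:53602671-53602824 (+) for Hyou1, chr14:84604538-84604596 (+) for Xbp1, chr17:92941438-92941496 (+) for Ero1b and chr19:10614801-10614851 (-) for Herpud1. Counted from the transcription start, with -1 just before it, the ERSE of Hspa5 spanned -43 to -25 and that of Xbp1 -65 to -47. Hsp90b1 held 2 ERSE matches, at -176 to -158 and, on the other strand, at -72 to -54. Hyou1 held 2 ERSE-II matches, and its UPRE overlapped the upstream one. Herpud1 held 1 ERSE-II match, and Dnajb11, the other gene with ERSE-II, held one that reached across the start.

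ERSE occurred in 9 of the 31 entries (29.0%), against 22 of all 33469 promoter entries (0.0657%). ERSE-II occurred in 3 (9.7%), against 17 of all entries (0.0508%), and UPRE in 1 (3.2%), against 199 (0.595%). Any of the motifs was found in 12 entries (38.7%), against 237 of all entries (0.708%). The genes were chosen by name as parts of the response that ATF6 and XBP1 drive. Their shares of these motifs are therefore not independent of that choice, and they were not tested. ERSE lay mainly among the chaperones, in 6 of 12 entries, and in none of the 5 translocon and 2 prolyl isomerase entries. The ninth gene with ERSE was Derl3, which had no probe set. A match is a run of letters, not a binding site shown in these cells, and no match says only that the letters are not in the window.

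The arrays had similar median signals and RNA integrity ratios, and all 5 poly(A) spike-in controls read highest on the parental array. Median signal was 342 to 372 on the 5 arrays, and the beta-actin 3' to 5' ratio, a sign of RNA integrity, was 1.49 to 1.73. The widest gap was in the poly(A) control lys, which averaged 4845 on the parental array and 1202 to 1646 on the clone arrays, and the hybridisation controls averaged 1303 against 1486 to 1755. On 1-1.2, lys was 1202, the hybridisation controls were 1695 and the actin ratio was 1.49, the lowest of the 5; their part in the results was not tested. The parental array and the parental line cannot be told apart. All 8 beta cell markers with a probe set were bright enough to test. None of the exocrine, fibroblast, or endothelial and leukocyte markers was, and their summed signals were 286 to 388, 532 to 713 and 355 to 424. Of the markers of other islet endocrine cells, 1 of 5 with a probe set was tested: Gcg, which encodes glucagon, gave 6874.5 in the parental line, 2064 in 1-1.2, 17772 in 1-1.16, 20549.5 in 5-3.14 and 24434 in 5-3.19. It was lowest in 1-1.2 and highest in 5-3.19, the summed signal of its list ran from 2218 to 24570.0, and its part in the results below was not tested. With 1 array per line, more RNA per cell and more cells with the RNA cannot be told apart.

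The ER folding genes had in common that most of them read highest in clone 1-1.2. Of the 35 genes, 24 (68.6%) were highest on that array, against 16.6% of all tested genes. Among the 497 tested genes at least as bright on average as the median ER folding gene (mean signal 6292), a background chosen after the data were seen, the share was 36.4%. The count was 26 after median centring, 21 after quantile normalization and 22 after cyclic loess, and it was 27 among the clones alone when the parental array was left out. At the other end, 19 of 35 (54.3%) were lowest in 5-3.19, against 23.4% of all tested genes, and 9 (25.7%) were lowest in 5-3.14, against 23.2%. None was highest in 5-3.19. The genes highest elsewhere were Calr, Ero1a, Herpud1 and Sec61a1 (5-3.14), Xbp1 and Edem1 (1-1.16), and Eif2ak3, Dnajb9, Sil1, Sel1l and Derl1 (parental).

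**Figure D1:**
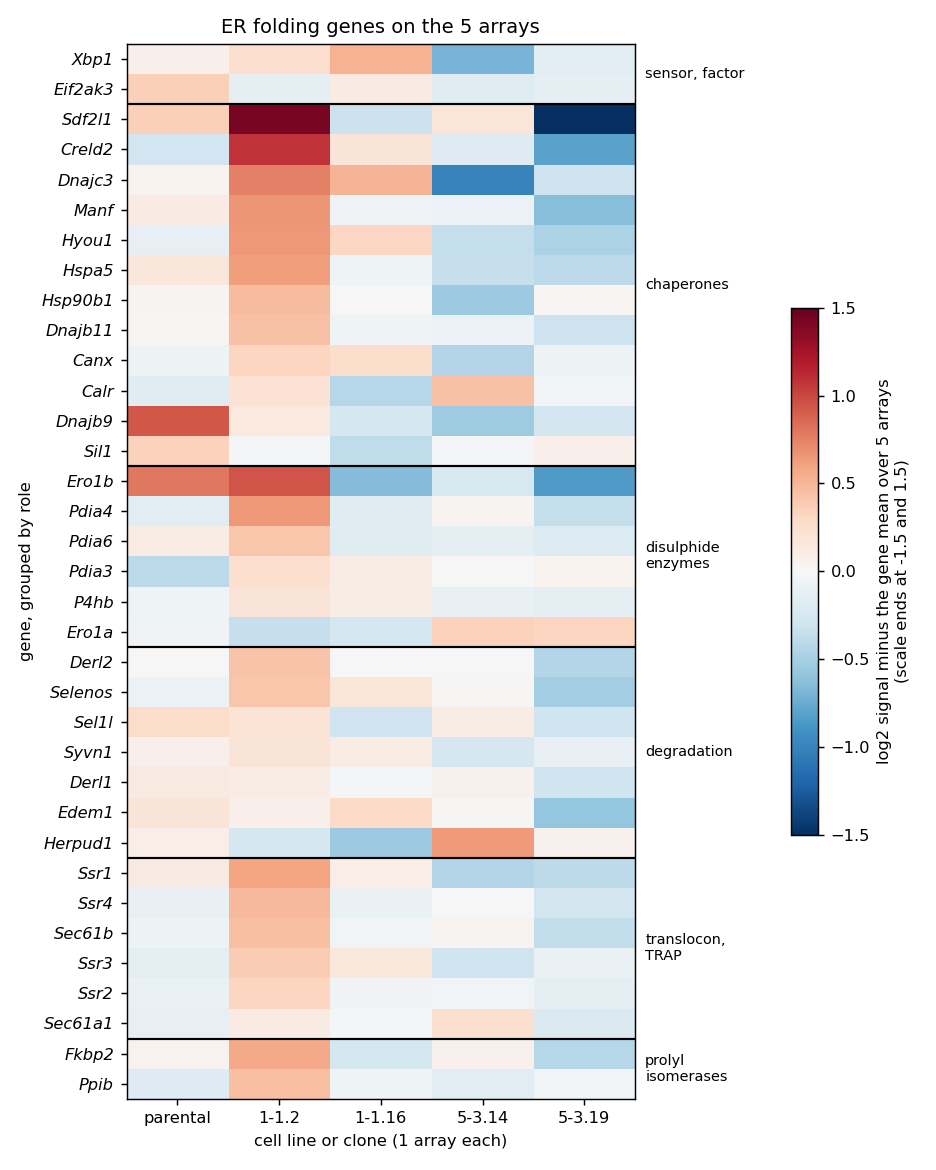
Log2 signal of each of the 35 ER folding genes on each array (columns), minus the gene's mean over the 5 arrays, with rows grouped by role and colour showing the difference. The column of clone 1-1.2 is mostly above the genes' means, and that of 5-3.19 mostly below them; no error is drawn because each line had 1 array.

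The measured members of the sensor arm did not follow this pattern. Xbp1, the transcription factor whose spliced form is made by IRE1, gave signals of 7524.5 in the parental line, 8535 in 1-1.2, 10285 in 1-1.16, 4405 in 5-3.14 and 6402 in 5-3.19. Both clones of set 1-1 were above both of set 5-3, and the parental line lay between the sets. A single probe set does not separate spliced from unspliced Xbp1. Eif2ak3, which encodes PERK, gave 1141 in the parental line, 794 in 1-1.2, 964 in 1-1.16, 777 in 5-3.14 and 793 in 5-3.19. All clones were below the parental line, at 0.681 to 0.845 of its signal, and 1-1.16 stood above the other clones.

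Among the 12 chaperones and co-chaperones, 9 were highest in 1-1.2. Hspa5, which encodes BiP, the main Hsp70 chaperone of the ER, gave 14955 in the parental line, 20628 in 1-1.2, 12753 in 1-1.16, 10469 in 5-3.14 and 10178 in 5-3.19. Clone 1-1.2 read 1.38 times the parental signal and 1.62 times its sister clone, while both 5-3 clones read about alike and below every other array. Hsp90b1, the ER form of Hsp90 (GRP94), gave 14273, 19259, 13809, 9510.1 and 14126 in the same order. Here 5-3.14 was the low array, and 5-3.19 lay close to the parental line.

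Sdf2l1, a BiP cofactor induced by ER stress, had the widest range of any of the 35 genes. Its signal was 4704 in the parental line, 9900.2 in 1-1.2, 2938 in 1-1.16, 4155 in 5-3.14 and 1157 in 5-3.19. Thus 1-1.2 read 8.56 times 5-3.19, and within each set the clones stood apart, by 3.37-fold in set 1-1 and 3.59-fold in set 5-3. Creld2, another secretory pathway protein induced by ER stress, gave 3076 in the parental line, 7948 in 1-1.2, 4299 in 1-1.16, 3276 in 5-3.14 and 2132 in 5-3.19. Clone 1-1.2 was again highest, at 2.58 times the parental signal, and both clones of set 1-1 lay above both of set 5-3. Manf, a small secreted ER protein that protects cells under ER stress, gave 6123 in the parental line, 8916 in 1-1.2, 5409.6 in 1-1.16, 5296 in 5-3.14 and 3595 in 5-3.19. It too was highest in 1-1.2 and lowest in 5-3.19, with the parental line and the other clones between them.

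Co-chaperones of BiP varied in different ways. Dnajc3 (p58IPK), which assists BiP and restrains PERK, gave 1686 in the parental line, 2753 in 1-1.2, 2322 in 1-1.16, 798 in 5-3.14 and 1304 in 5-3.19. Both set 1-1 clones were above the parental line and both set 5-3 clones were below it. Dnajb9 (ERdj4), which directs BiP to IRE1 and to degradation clients, gave 2027 in the parental line and 1164, 870.4, 718 and 864 in 1-1.2, 1-1.16, 5-3.14 and 5-3.19. All clones were lower than the parental line, at 0.354 to 0.574 of its signal, so Dnajb9 departed from Hspa5 in 1-1.2. Sil1, the nucleotide exchange factor that resets BiP, also read highest on the parental array, at 1246, with clones from 744 to 1028.

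Of the remaining chaperone genes, Hyou1, Canx and Dnajb11 were highest in 1-1.2 and Calr was not. Hyou1 (GRP170), a large Hsp70 relative and exchange factor, gave 534 in the parental line, 928 in 1-1.2, 730.3 in 1-1.16, 451 in 5-3.14 and 415 in 5-3.19. Its other tested probe set had its highest and lowest signals on the same arrays. Canx, the membrane lectin calnexin, ranged from 4745 in 5-3.14 to 8092 in 1-1.2, with 1-1.16 close to it at 7756. All 3 of its probe sets were highest in 1-1.2 and lowest in 5-3.14. On the dimmest of them 1-1.2 and 1-1.16 were nearly equal (6438 and 6436). Dnajb11 (ERdj3) ranged from 2483 in 5-3.19 to 4195 in 1-1.2. Calr, the soluble lectin calreticulin, was highest in 5-3.14 (12025) and lowest in 1-1.16 (6553), so the lectin partners Calr and Canx differed in order over the clones.

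The disulphide enzymes are divided here into the protein disulphide isomerases, which pass bonds to client proteins, and the Ero1 oxidases, which recharge them. Pdia4 gave 8104 in the parental line, 14186 in 1-1.2, 7936 in 1-1.16, 9299 in 5-3.14 and 7027 in 5-3.19. Only 1-1.2 stood far from the others, at 1.75 times the parental signal. Pdia6 behaved similarly, with 9999 in the parental line, 12342 in 1-1.2, and 8109, 8367 and 8033 in the other clones. P4hb, the classical protein disulphide isomerase, had the narrowest range of the group, with 14820.4 in the parental line, 17771 and 16801 in set 1-1, and 14394 and 14048 in set 5-3. Pdia3 (ERp57), the partner of the lectin chaperones, gave 8817 in the parental line and 13938, 12613, 11677 and 12083 in 1-1.2, 1-1.16, 5-3.14 and 5-3.19. All 4 clones were above the parental line, by 1.32- to 1.58-fold. Its second, dim probe set did not show this: it read 424 in the parental line, 426 in 1-1.2 and 307 to 409.9 in the other clones.

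The oxidases ran in different directions. Ero1b, the form enriched in the pancreas, gave 2234.5 in the parental line, 2472 in 1-1.2, 808 in 1-1.16, 1079 in 5-3.14 and 700.3 in 5-3.19. The parental line and 1-1.2 were high and the other 3 clones low, at 0.313 to 0.483 of the parental signal. Ins2, one of the rat insulin genes, gave 28816 and 30224 in the parental line and 1-1.2 and 5381, 3953 and 4303 in 1-1.16, 5-3.14 and 5-3.19, the same arrays being high and low. Ins2 was singled out after its values were seen, and the other beta cell markers did not share its grouping of arrays. Of the 8 tested markers, 3 were highest in 1-1.2: Ins2, Ins1 and Iapp. Ins1 stayed within 34381 to 42217. Iapp ran from 33945 in 1-1.2 to 19160 in 5-3.19, with 28102 in 5-3.14. Pcsk2, a prohormone convertase, was low in both 1-1 clones (3331 and 1974) and 7512 to 9129.9 elsewhere. The glucose transporter Slc2a2 (10531) and Chga were highest in 5-3.19, Pdx1 in 5-3.14, and Nkx6-1 in the parental line. Ero1a, the widely expressed oxidase, gave 1042 in the parental line, 848.5 in 1-1.2, 902 in 1-1.16, 1387 in 5-3.14 and 1364 in 5-3.19. It was the only one of the 35 genes that was lowest in 1-1.2, and both set 5-3 clones were above every other array.

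Degradation factors, which draw misfolded proteins out of the ER, were divided: 3 of 7 were highest in 1-1.2. Selenos, a membrane protein that links the degradation complex to the cytosolic extraction machinery, gave 5928 in the parental line, 8445.5 in 1-1.2, 7148 in 1-1.16, 6410.3 in 5-3.14 and 4377 in 5-3.19. Derl2, a component of the retrotranslocation complex, gave 1521, 2044, 1526, 1505 and 1112 in the same order. Both were highest in 1-1.2 and lowest in 5-3.19. Edem1, which recognises trimmed sugars on misfolded glycoproteins, gave 2994 in the parental line, 2772.5 in 1-1.2, 3220.2 in 1-1.16, 2659.9 in 5-3.14 and 1756 in 5-3.19, so that 5-3.19 alone stood low.

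Herpud1, a stress-induced scaffold of the degradation complex, gave 1052 in the parental line, 814 in 1-1.2, 663 in 1-1.16, 1531 in 5-3.14 and 1025.5 in 5-3.19. Both 5-3 clones were above both 1-1 clones, the reverse of most of the list. Sel1l, the adaptor of the ubiquitin ligase Syvn1, gave 2726 in the parental line, 2582 in 1-1.2, 1816 in 1-1.16, 2423 in 5-3.14 and 1817 in 5-3.19; 1 clone of each set was low. Syvn1 (HRD1) itself ranged only from 1249 in 5-3.14 to 1708 in 1-1.2. Derl1 gave 4110.1 in the parental line, 4040.0 in 1-1.2, 3707 in 1-1.16, 3916 in 5-3.14 and 3049 in 5-3.19, the narrowest range of this role. The parental line and 1-1.2 were nearly equal there, and the other 2 probe sets of Derl1 were highest in 1-1.2.

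The translocon, through which secretory proteins enter the ER, and the associated TRAP complex (Ssr1 to Ssr4) had 5 of 6 genes highest in 1-1.2. Sec61b, a small subunit of the channel, gave 13589.7 in the parental line, 19664 in 1-1.2, 13965 in 1-1.16, 14748.5 in 5-3.14 and 11118 in 5-3.19. The channel subunit Sec61a1 was the exception, with 5958, 7047, 6334, 7670.1 and 5555 in the same order, and its other probe set was highest in 1-1.2. Ssr1 gave 8508 in the parental line, 11724 in 1-1.2, 8283 in 1-1.16, 5708 in 5-3.14 and 5913 in 5-3.19. Both 5-3 clones were well below the other arrays.

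The other TRAP subunits kept the high reading of 1-1.2. On the probe sets that stand for them, the 5-3 clones were not both below the parental line. Ssr4 gave 12186 in the parental line, 18482 in 1-1.2, 12320.3 in 1-1.16, 13065 in 5-3.14 and 10905 in 5-3.19. Ssr2 gave 10926, 14688, 11327, 11437 and 10706, and Ssr3 gave 8621, 12298, 10562, 7676.5 and 8858. For Ssr3, both 5-3 clones still lay below both 1-1 clones. Of the 3 probe sets of Ssr3, 1 was highest in 1-1.16 and the others in 1-1.2. On 1 of these others, 5-3.14 and 5-3.19 (2939 and 3051) were also below the parental line (3246). Both prolyl isomerases of the list, which speed folding around proline, were highest in 1-1.2. Ppib (cyclophilin B) gave 5511 in the parental line, 8614 in 1-1.2, 6038 in 1-1.16, 5603 in 5-3.14 and 6137 in 5-3.19. Fkbp2 gave 6909, 9892, 5530.4, 6961 and 4963.

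**Figure D2:**
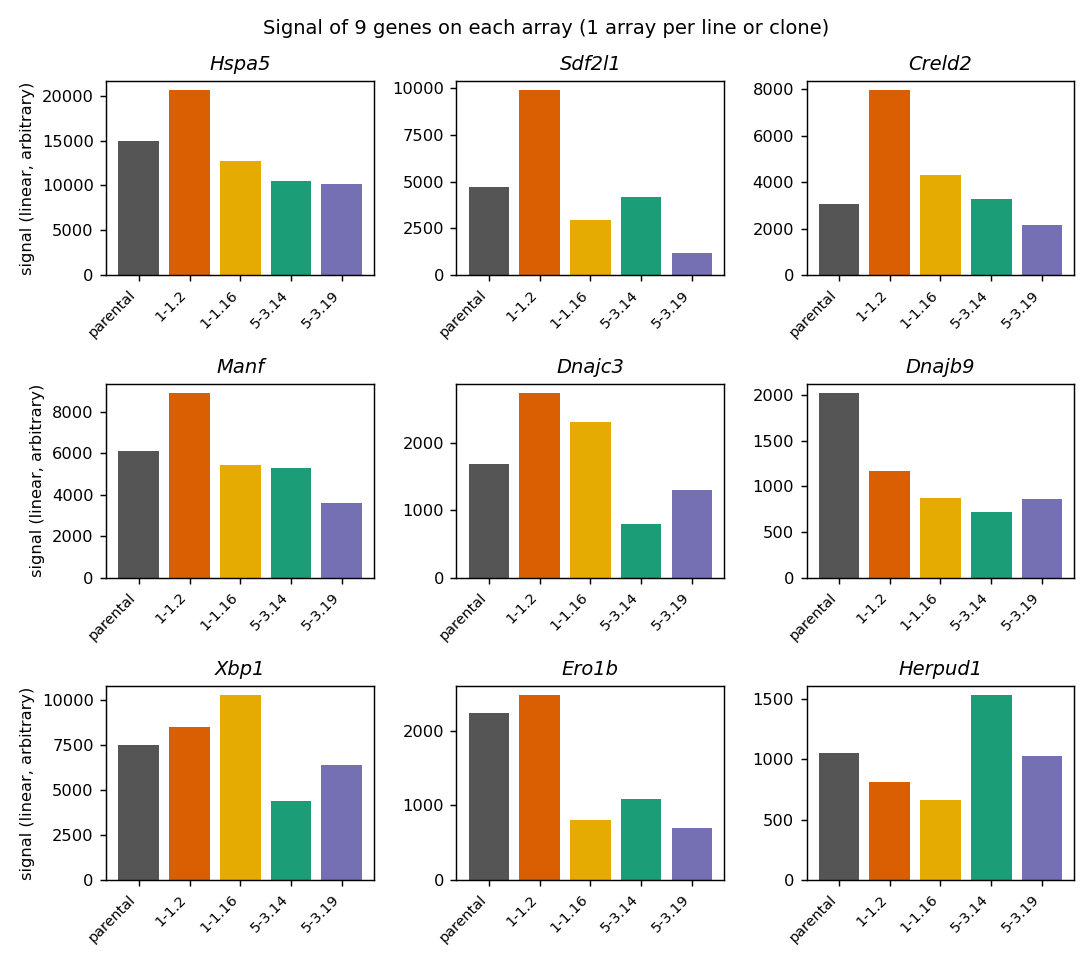
Linear signal intensity (arbitrary units, axis from 0) on each of the 5 arrays for 9 ER folding genes, 1 bar per array and no error bar because each line had 1 array. Hspa5, Sdf2l1 and Creld2 peak in 1-1.2, whereas Dnajb9 is highest in the parental line.

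Genes with and without an ERSE were highest in 1-1.2 at similar shares. Of the 8 measured genes with an ERSE in the window, 6 were highest in 1-1.2, as were 15 of the 21 measured genes whose window held none. Their median ratio of 1-1.2 to the parental line was 1.33 with ERSE and 1.34 without. The median ratio of the highest to the lowest array was 2.18 with ERSE and 1.77 without, and that of 1-1.2 to 1-1.16 was 1.48 and 1.34. The median log2 difference of set 5-3 from set 1-1 was -0.67 with ERSE and -0.35 without. Calr and Xbp1 carried ERSE and were highest on other arrays. Hyou1, Dnajb11 and Herpud1 held ERSE-II but no ERSE, and are counted here as without ERSE. Of these, Hyou1 and Dnajb11 were highest in 1-1.2 and Herpud1 in 5-3.14. The groups with and without ERSE are small and were not tested.

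The first comparison asks what sets the engineered clones apart from their parental line. Across the 4 clones, the ER folding genes gave no common shift from the parental line. The mean was higher in the clones for 15 genes and lower for 20. Of all 6944 tested genes, 3655 were higher and 3289 lower. The median log2 difference of the ER folding genes was -0.05, against 0.02 for all tested genes. The median was 0.07 without 5-3.19, so its sign rested on that clone. Pdia3 and Ppib were above the parental line in all 4 clones (19.1% of all tested genes were). Dnajb9, Eif2ak3, Sel1l, Derl1 and Sil1 were below it in all 4 (18.3% of all tested genes). For Pdia3 and Derl1 this held only on the brightest probe set of the gene. On the other probe sets of Derl1, 1-1.2 read 1.14 and 1.24 times the parental signal. In limma's moderated test, with Benjamini-Hochberg adjustment over 9520 probe sets, no member was called and 0% of probe sets were; 349 probe sets (3.67%) had an unadjusted p under 0.05. Of the 35 members 2 did. Dnajb9 differed by -1.17 on the log2 scale (SE 0.32, n = 4 clones against 1 array; limma adjusted p = 1.00) and Pdia3 by 0.51 (SE 0.18, limma adjusted p = 1.00).

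Taken clone by clone against the parental array, which all of these comparisons share, the lines differed in direction. In 1-1.2, 27 of 35 read higher than the parental line, as did 3642 of all 6944 tested genes. Of the 497 genes at least as bright as the median ER folding gene, 360 did. The median ratio was 1.34, against 1.02 for all tested genes and 1.12 for these bright genes. By 1.5-fold or more on the log2 scale used for counts, 8 members were higher (7.49% of all tested genes were) and 1 was lower (9.95%). The 8 were Creld2, Sdf2l1, Pdia4, Hyou1, Dnajc3, Pdia3, Ppib and Ssr4, and the 1 was Dnajb9. The count of 8 was 13 after median centring and 5 after quantile normalization or cyclic loess. In 1-1.16 none was 1.5-fold higher (13.5%) and 5 were lower (11.4%): Ero1b, Dnajb9, Sil1, Sdf2l1 and Herpud1. The median ratio there was 0.979, against 1.04 for all tested genes.

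In 5-3.14, Calr was 1.5-fold higher (10.8% of all tested genes) and Dnajb9, Dnajc3, Ero1b and Xbp1 were lower (13.3%). The median ratio was 0.891, against 0.997 for all tested genes. The 4 lower genes became 7 after quantile normalization or cyclic loess. In 5-3.19 none was 1.5-fold higher (8.74%) and 5 were lower (8.58%): Sdf2l1, Ero1b, Dnajb9, Manf and Edem1. Only 5 of 35 read above the parental line there at all. Of all 6944 tested genes 3401 did, and of the 497 bright genes 271 did. The median ratio was 0.804, against 0.995 for all tested genes and 1.02 for the bright genes. Single arrays give no replicate error, so these counts have no test.

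The clones of a set differed from each other. In set 1-1, 31 of 35 genes read higher in 1-1.2 than in 1-1.16. So did 3109 of all 6944 tested genes and 371 of the 497 genes at least as bright as the median ER folding gene. The median ratio was 1.33, against 0.968 for all tested genes and 1.12 for these bright genes. By 1.5-fold or more, 9 members were higher (5.03% of all tested genes) and none was lower (7.23%). The 9 were Sdf2l1, Ero1b, Creld2, Fkbp2, Pdia4, Manf, Hspa5, Calr and Pdia6, from the chaperone, disulphide and isomerase roles. Ssr4, of the translocon group, lay just under the limit (18482 against 12320.3), and the count of 9 was 14 after median centring. In set 5-3, Sdf2l1, Ero1b, Creld2 and Edem1 were 1.5-fold higher in 5-3.14 than in 5-3.19 (7.66%), and Dnajc3 was lower (13.1%). The median ratio was 1.08, against 1.02 for all tested genes and 1.09 for the bright genes.

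The second comparison sets the clones 5-3 against the clones 1-1. Most ER folding genes had lower means in set 5-3: 31 of 35 did. So did 3873 of all 6944 tested genes and 264 of the 497 genes at least as bright as the median ER folding gene. The median log2 difference of the ER folding genes was -0.37, against -0.05 for all tested genes. The exceptions were Calr, Ero1a, Herpud1 and Sil1. In 18 genes (51.4%) both 5-3 clones lay below both 1-1 clones (26.1% of all tested genes), and in Herpud1 and Ero1a both lay above (21.7%). The median rested partly on 1-1.2: it was -0.14 without that clone and -0.59 without 1-1.16.

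No member passed the threshold of 0.05 in this comparison by limma's test with Benjamini-Hochberg adjustment, in which 0.42% of the 9520 probe sets were called. At an unadjusted p under 0.05 there were 10 members of 35 (28.6%) and 1413 probe sets (14.8%). Dnajc3 came nearest, with 1051 ± 358 in set 5-3 and 2538 ± 304 in set 1-1 (SD, n = 2 clones each), which is -1.29 on the log2 scale (SE 0.29, limma adjusted p = 0.128). Without 5-3.19 the difference was -1.64 (limma adjusted p = 0.0216), the only member call under the alternatives run. In that fit 106 of 6944 tested genes were called lower (1.53%), so 1 of 35 is near the background. Set 5-3 is then 5-3.14 alone, the lowest array for Dnajc3, and the fit takes its spread from the 2 clones of set 1-1, which that single clone is assumed to share. Hyou1 followed with -0.90 (SE 0.24, limma adjusted p = 0.180), then Ssr1 with -0.76 (SE 0.22, limma adjusted p = 0.192) and Xbp1 with -0.82 (SE 0.24, limma adjusted p = 0.197). Hspa5 gave 10320 ± 206 in set 5-3 and 16690 ± 5569 in set 1-1, a difference of -0.65 (SE 0.24, limma adjusted p = 0.277) whose size came mostly from 1-1.2: it was -0.30 without that clone. Ero1a, in the other direction, gave 1375 ± 16.3 and 875.5 ± 38.1, a difference of 0.64 (SE 0.21, limma adjusted p = 0.228).

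**Figure D3:**
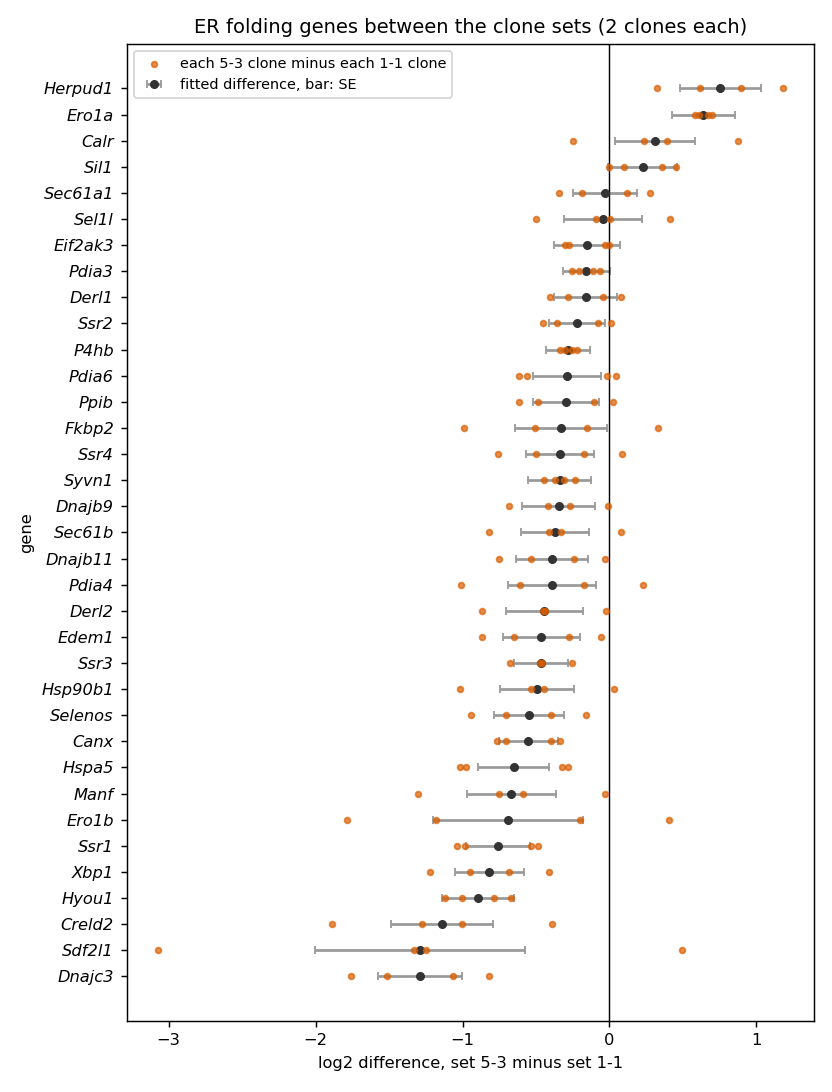
Log2 difference of set 5-3 from set 1-1 for each ER folding gene, ordered by size on the horizontal axis: black points are the fitted difference with its SE from limma (bars), and orange points each 5-3 clone minus each 1-1 clone. Of the fitted differences 31 of 35 lie below 0, and all orange points of Ero1a and Herpud1 lie above it; no gene passed the adjusted threshold.

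Other pathway genes showed which neighbouring processes shared the high reading of 1-1.2. Of 15 tested genes for N-glycosylation and signal peptide cleavage, 14 were highest there, and Ostc, a subunit of the oligosaccharyltransferase, gave 8106 in the parental line, 11508 in 1-1.2, 6626 in 1-1.16, 6836 in 5-3.14 and 3976 in 5-3.19. Sec11c, a catalytic subunit of signal peptidase, gave 8445.5, 11652.5, 8565, 4469.9 and 4863, and Mogs, the first glucosidase to trim the sugar, gave 2775, 4054, 3489.5, 2752 and 1947. Of the 12 tested genes of the signal recognition particle and further translocon, 9 were highest in 1-1.2 (Spcs2 is on both lists). The exceptions included Sec63, a BiP-recruiting translocon partner, which was lowest there (733, against 986 to 1513 elsewhere). Its other tested probe set was lowest in 1-1.16 (372, against 431 in 1-1.2). Srp72 was also an exception, with 2850.4 in 1-1.2 and 3174 in 1-1.16, and its other tested probe sets were highest in 5-3.19. Sec62 gave 1929.8 in 1-1.2 and 969 to 1634 elsewhere on its brightest probe set. The other tested probe set of Sec62 was highest in 5-3.19 (1617, against 1393 in 1-1.2). Among 37 tested genes of further degradation, folding and ER stress, 12 were highest in 1-1.2. Fkbp11, a secretory prolyl isomerase, was one of them, at 4706 against 1467 to 3365 on the other arrays. Mbtps1, the protease that cleaves ATF6, was higher in both 5-3 clones (2923 and 2640.1) than on the other arrays (1078 to 1341), and Rnf5, an ER ubiquitin ligase, was lower in both 1-1 clones (2775 and 1896) than on the others (4936 to 5284).

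Heat shock proteins of the cytosol and mitochondria did not share the reading: 2 of 15 tested genes were highest in 1-1.2. Dnajb1, a cytosolic Hsp40, was highest in 5-3.14 (2763, against 935 to 1795 elsewhere), and so was the inducible Hspa1a (348, against 159.7 to 299). Hspa9, the mitochondrial Hsp70, was highest in 1-1.16 (5366, against 2384 to 4066).

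Genes listed for the PERK, ATF4 and CHOP branch mostly had their high array in the sister clone. Activity of PERK was not measured. Of 13 tested genes, 10 were highest in 1-1.16 (26.1% of all tested genes were). The others were Ddit4, highest in 1-1.2, and Nupr1 and Vldlr, highest in the parental line. In 1-1.16, 9 of the 13 were at least 1.5-fold above the parental line (13.5% of all tested genes were). Ddit3 (CHOP) gave 496 in the parental line, 675 in 1-1.2, 1896 in 1-1.16, 528 in 5-3.14 and 566 in 5-3.19. Atf3, another transcription factor of the branch, gave 184, 251, 878, 96.9 and 132. It lay below the test limit (signal about 194) in the parental line, 5-3.14 and 5-3.19. Its mean passed that limit only with 1-1.16 included, so its place among the 10 rests on that array. Trib3, a pseudokinase induced by CHOP, gave 179, 356, 1314, 344 and 142. These 3 peaked in 1-1.16, where the ER folding genes were divided: 17 of 35 read above the parental line, among them Creld2 (1.40 times the parental signal), Dnajc3 (1.38) and Xbp1 (1.37), and others below it, among them Hspa5 (0.853), Manf (0.884) and Sdf2l1 (0.625). The means of all 13 were lower in set 5-3 than in set 1-1, as were those of 3873 of all 6944 tested genes. No gene of any of these further lists was called in either comparison. The lowest adjusted p among them was 0.0675, for Mbtps1 between the sets (limma).

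**Figure D4:**
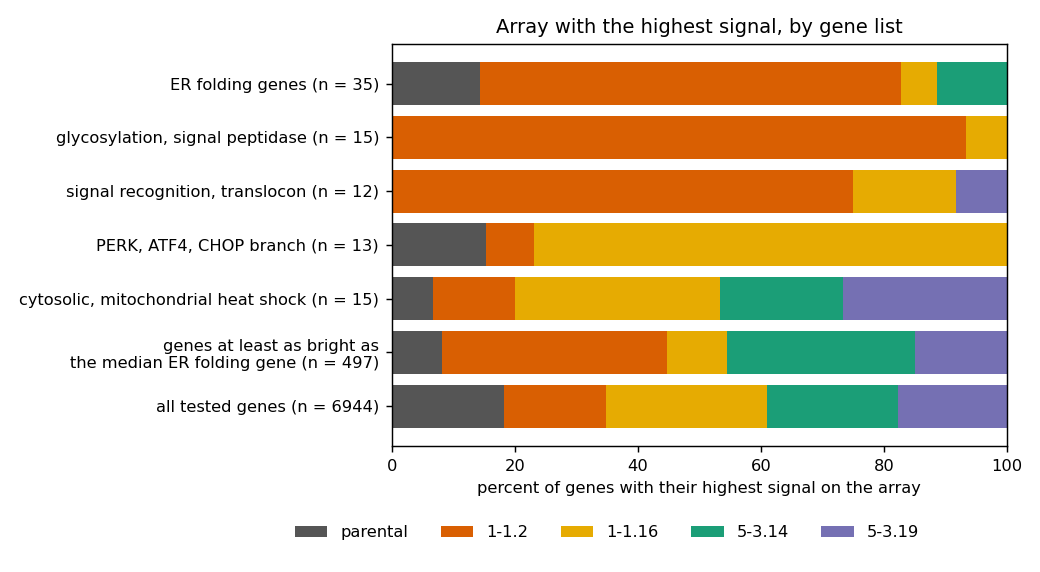
Percentage of genes (horizontal axis) whose highest signal was on each array (colours), as stacked bars for the ER folding genes, 4 of the further lists, the tested genes at least as bright as the median ER folding gene and all tested genes, with the number of genes beside each. Clone 1-1.2 held the highest signal of 68.6% of the ER folding genes, against 36.4% of the bright genes and 16.6% of all tested genes, and 1-1.16 that of 10 of the 13 PERK branch genes.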

How the data were processed

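Total RNA of 5 lines was hybridised to single-colour rat arrays. Each value the authors deposited is read, from its range, as a linear intensity of 1 probe set on 1 array; their software and background correction were not given in the sources used here. On every array the trimmed mean (lowest and highest 2% left out) was 1000, so the intensities deposited had already been scaled and were used unchanged. Precision is limited by the number of arrays.

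Of 15923 probe sets, 57 controls were left out; of the other 15866, 12783 had 1 gene symbol in the platform annotation, 312 several and 2771 none, and 12748 were found by gene number in the GRCr8 table. Values were taken as log2(signal + 21.8), which understates folds of dim genes, and probe sets with a mean at or above the 40th percentile (signal about 194) were tested (9520). The probe set with the highest mean stood for a gene. limma 3.58.1 in R 4.3.3 (lmFit, eBayes with trend) compared the 4 clones with the parental array (3 residual degrees of freedom, the parental array assumed to vary like a clone) and the sets in a fit of 3 groups (2 residual degrees of freedom), with Benjamini-Hochberg adjustment over all tested probe sets. The p-values reflect only how far these clones differ among themselves. Counts of folds used the log2(signal + 21.8) scale; ratios in the text are of plain signals. The code was tested on simulated data.

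The genes and all lists were chosen with earlier results of these data known. The naming rule gave every array's value for the sensors, Hspa5, members called and, per role, the 5 genes with the widest range and the 1 with the narrowest, and 3 genes of each further list; values of Syvn1, Hyou1, Hsp90b1, Calr, Canx, Dnajb11 and of beta and other islet cell markers were added. Alternatives covered scaling, offset, filter, variance model, grouping, probe set, fold limit and leaving out each clone. Leaving the parental array out of the counts of highest and lowest arrays, and the background of bright genes, were added after the data were seen.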

Additional observations from a re-analysis of the deposited data

Results flagged for a closer look

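Among the 4 clones, the gap between 1 clone and the nearest other was large against the whole range in 2 of the 35 genes, past Dixon's limit for 4 values, which chance passes in about 1 in 20 groups. Pdia6 read 12341.8 in 1-1.2, and 8033 to 8367 in the other clones, a gap of 0.922 of the range. Eif2ak3 read 964.1 in 1-1.16, and 777 to 794 in the other clones, a gap of 0.908 of the range.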

How the results depend on the processing

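Median differences of the members and the counts of members highest or lowest on an array kept their direction, and the latter stayed within 1.5 times, under each scaling, offset, filter and probe set rule tried; no member was called under any of these. Leaving out each clone in turn gave member medians of -0.159 to 0.069 for the clones minus the parental line (0.069 without 5-3.19, the reversed value) and of -0.589 to -0.141 for set 5-3 minus set 1-1 (-0.141 without 1-1.2), with 0 to 1 member called lower between the sets. Counts past 1.5-fold moved more. Median centring gave 13 higher in 1-1.2 and 2 higher in 5-3.14 than in the parental line, 14 higher in 1-1.2 than in 1-1.16 and 7 higher in 5-3.14 than in 5-3.19. Quantile normalization and cyclic loess each gave 5 higher in 1-1.2, 7 lower in 5-3.14, and 3 lower in 5-3.14 than in 5-3.19, and cyclic loess gave 0 higher in 5-3.14. An offset 4 times larger gave 2 higher in 5-3.14 than in 5-3.19. A limit of 2-fold gave, against the parental line, 2 higher and 0 lower in 1-1.2, 2 lower in 1-1.16, 0 higher in 5-3.14 and 3 lower in 5-3.19; between sister clones it gave 2 higher in 1-1.2, and 1 higher and 0 lower in 5-3.14. For single genes, the difference from the parental line changed sign in Sdf2l1 (0.0724 without 5-3.19), Manf (0.0514 without 5-3.19), Xbp1 (0.133 without 5-3.14), Pdia4 (-0.0124 without 1-1.2) and Dnajc3 (0.264 without 5-3.14 and 0.033 without 5-3.19), and that between the sets in Ero1b (0.104) and Pdia4 (0.0265), both without 1-1.2. Leaving out each clone gave log2 ranges of -0.952 to 0.0724 for Sdf2l1, -0.384 to 0.0514 for Manf, -0.274 to 0.133 for Xbp1, -0.0124 to 0.325 for Pdia4 and -0.322 to 0.264 for Dnajc3, and between the sets of -1.48 to 0.104 for Ero1b and -0.81 to 0.0265 for Pdia4. The cause of these shifts was not tested. Protein features were not run. Precision is limited by having 1 array per line.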
